A study of Mus musculus with 32 samples.

Results

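A set of 10 genes that mark the epithelium of the alveoli and small airways was followed through RNA, repair and damage in mouse lung after cisplatin. They were taken as a list of symbols, Sftpa1, Sftpb, Sftpc, Sftpd, Scgb1a1, Ager, Hopx, Napsa, Lamp3 and Abca3, and all 10 were matched by symbol to a gene identifier among the 25059 genes of the RNA-seq files. In lung 8 of them were among the 398 genes with at least 100 RPKM (reads per kilobase of exon and 1000000 reads). Cisplatin changed none of the 10 past the test. Of the 8, 7 had transcribed-strand repair per GG dinucleotide below the lower quartile of all genes with at least 100 RPKM. Repair was measured over all cells of the organ, not in the epithelium alone.

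The alveolus is lined by flat type 1 cells, across which gas is exchanged, and by cuboid type 2 cells, which make surfactant, a film of lipid and protein that keeps the air space from collapsing. Surfactant lipid and its hydrophobic proteins are packed into lamellar bodies before they are secreted. In the small airways the club cell secretes protective proteins into the airway fluid, chief among them the product of Scgb1a1. Cisplatin joins neighbouring guanines of one DNA strand, and nucleotide excision repair cuts out the adduct in a short oligomer. It works over the whole genome and, faster, on the strand that RNA polymerase reads.

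Organs came from female C57BL/6J mice aged 6 to 7 months that received cisplatin at 10 mg/kg or saline into the peritoneum. The protocol puts the injection at ZT1 and the end at ZT5, which is 4 h apart, whereas a field of the labels gives 2 h. Cisplatin-treated kidney, liver, lung and spleen each gave 2 Damage-seq libraries, which count adducts still in the DNA, 2 XR-seq libraries, which count excised oligomers, and 2 RNA-seq libraries, and saline-treated mice gave a further 2 RNA-seq libraries per organ. Damage-seq and XR-seq have no untreated libraries here, and each gene has a read count for its template or transcribed strand (TS) and another for the opposite, non-transcribed strand (NTS). The animals were wild type, whole organs were used, and the labels do not tie libraries to animals, so the spread between libraries, which p-values rest on, may be technical.

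Reads on genes numbered from 15619474 to 162270280 in RNA-seq, from 10658675 to 59779770 in XR-seq and from 1571167 to 6441367 in Damage-seq. After deposit the submitters exchanged control and cisplatin in the labels of the lung and spleen RNA libraries, and the corrected labels are used. With them Cdkn1a, the p53 target that halts the cell cycle, stood at 42.2 and 40.3 RPKM in lung controls and at 141 and 165 RPKM after cisplatin. Mdm2, the p53 target that limits p53 itself, stood at 15.8 and 16.1 RPKM in controls and at 20.6 and 25.2 RPKM after cisplatin. Of a list of 10 p53 targets, 1 rose past the test in lung. The counts of the lung controls differed by little more than sampling (chi-square over its degrees of freedom 2.75, against 39.3 to 349 for the pairs of the other RNA-seq groups except the spleen controls, at 2.98), so the lung controls were summed and counted as 1 sample, and likewise the spleen controls. Every lung comparison of RNA after treatment therefore rests on 1 control and 2 cisplatin samples.

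The genes lie apart on the mouse genome (GRCm38, GENCODE M21) except for a pair on chromosome 14, Sftpa1 at chr14:41131782-41136452 on the plus strand and Sftpd at chr14:41172214-41185149 on the minus strand, 35762 bp from each other. Sftpc lies at chr14:70520949-70524081 (minus), Sftpb at chr6:72304610-72314371 (plus), Scgb1a1 at chr19:9083636-9087958 (minus), Ager at chr17:34597862-34600936 (plus), Hopx at chr5:77086988-77115121 (minus), Napsa at chr7:44572380-44586862 (plus), Lamp3 at chr16:19653378-19706375 (minus) and Abca3 at chr17:24351950-24410201 (plus). Levels of XR-seq and Damage-seq are given per 1000 GG on the strand in question over the whole gene, introns included, and the genes run from 3075 bp (Ager) to 58252 bp (Abca3). Antisense genes share ground with 3 of them: Hopxos covers 27.6% of Hopx, Gm15396 47.6% of Napsa and D330041H03Rik 9.53% of Abca3. There, the TS of one gene is the NTS of the other, and whether RNA-seq counting used strand is not given in the sources used here.

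The promoters of surfactant genes are known to bind NKX2-1, a homeodomain factor of lung and thyroid whose sites hold the letters CAAG. Promoters of 6 of the 10 genes were found in a RefSeq table (GRCm38.p6), namely those of Sftpa1, Sftpb, Ager, Hopx, Lamp3 and Abca3. CTCAAG was searched on both strands of the 250 bases before the start site, together with TATAAA, and 3 of the 6 genes held one or the other. They are printed in the direction of the gene with these letters in capitals, because they are the members that hold a motif and their RNA was higher in lung than in each other organ. Sftpa1 (chr14:41131538-41131787, plus), Sftpb (chr6:72304360-72304609, plus) and Hopx (chr5:77115124-77115373, minus) read as follows.
Sftpa1: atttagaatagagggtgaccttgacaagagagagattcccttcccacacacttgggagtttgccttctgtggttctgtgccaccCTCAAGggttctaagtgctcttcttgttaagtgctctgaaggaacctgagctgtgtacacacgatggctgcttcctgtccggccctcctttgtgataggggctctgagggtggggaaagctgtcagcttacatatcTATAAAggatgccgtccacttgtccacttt
Sftpb: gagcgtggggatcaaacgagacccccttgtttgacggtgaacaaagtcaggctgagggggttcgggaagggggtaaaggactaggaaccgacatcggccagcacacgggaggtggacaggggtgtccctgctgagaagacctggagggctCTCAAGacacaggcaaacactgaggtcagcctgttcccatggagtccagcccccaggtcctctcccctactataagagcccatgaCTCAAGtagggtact
Hopx: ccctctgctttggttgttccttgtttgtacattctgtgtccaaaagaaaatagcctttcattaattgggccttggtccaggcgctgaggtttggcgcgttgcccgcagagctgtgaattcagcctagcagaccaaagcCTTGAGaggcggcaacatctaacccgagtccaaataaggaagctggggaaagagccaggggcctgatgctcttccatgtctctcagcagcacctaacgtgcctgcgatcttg
CTCAAG began 166 bases before the start of Sftpa1, 100 and 15 bases before that of Sftpb and, on the other strand, 112 bases before the first of the Hopx starts. TATAAA began 30 bases before the start of Sftpa1. Among 32851 promoters of the same length, 13.3% held CTCAAG and 12.4% held TATAAA, and a match is a description of the letters only.

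The hydrophobic surfactant proteins had the highest RNA of the type 2 cell genes. Sftpc, whose product spreads the lipid film, was at 14165 and 13842 RPKM in lung controls and at 17080 and 13775 RPKM in cisplatin-treated lung, rank 2 among all genes by mean RPKM in lung. Sftpb, without which lamellar bodies do not form properly, was at 1170 and 1106 RPKM in controls and at 1503 and 1281 RPKM after cisplatin, rank 14. In kidney, liver and spleen the highest library reached 6.26 RPKM for Sftpc and 0.378 RPKM for Sftpb, so that lung and the other organs did not overlap for either gene. The collectins, which bind microbes in the air space, were lower. Sftpa1 was at 1034 and 1042 RPKM in controls and at 1287 and 1128 RPKM after cisplatin (rank 18), and Sftpd at 354.7 and 355.3 RPKM and at 474 and 453 RPKM (rank 61). Outside lung the highest values were 2.22 RPKM for Sftpa1 and 0.606 RPKM for Sftpd, both in liver.

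Scgb1a1 had more RNA per length than any other gene in lung. It was at 94070 and 95646 RPKM in controls and at 86925 and 110923 RPKM after cisplatin, and it took between 4.14% and 5.28% of the reads of a lung library. All 10 genes together took between 6.96% and 7.77%, against at most 0.536% in a library of any other organ. Outside lung, Scgb1a1 was at 5.11 to 33.7 RPKM in liver and reached 28.4 RPKM in kidney and 25.1 RPKM in spleen.

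Of the type 1 cell genes, Ager, the receptor for advanced glycation end products, was at 1133 and 1089 RPKM in lung controls and at 1377 and 1010 RPKM after cisplatin, and at most 3.61 RPKM elsewhere. Hopx, a homeodomain protein that binds no DNA and acts on transcription through partners, was at 475 and 471 RPKM in controls and at 488 and 534 RPKM after cisplatin. Its RNA was also found elsewhere, with 19.9 to 27.3 RPKM in liver, 10.2 to 14.5 RPKM in spleen and 2.70 to 5.19 RPKM in kidney. Lamp3, a membrane protein of lamellar bodies, was at 148.3 and 150.7 RPKM in lung controls and at 166 and 148.5 RPKM after cisplatin, and spleen held 0.523 to 0.834 RPKM. Kidney and liver had 0 to 15 reads of Lamp3 per library.

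Napsa and Abca3 went another way. Napsa, an aspartic protease that trims the precursors of the hydrophobic surfactant proteins, was at 72.3 and 71.2 RPKM in lung controls and at 86.5 and 61.0 RPKM after cisplatin, whereas kidney held 1540 to 1787 RPKM and spleen 59.3 to 94.8 RPKM. Kidney therefore stood above every lung library, and spleen overlapped with lung. Abca3, the transporter that loads lipid into lamellar bodies, was at 25.9 and 25.1 RPKM in lung controls and at 26.5 and 23.9 RPKM after cisplatin, overlapping the lower end of the 25.3 to 61.7 RPKM of kidney and above the 4.08 to 15.8 RPKM of liver and the 4.42 to 6.74 RPKM of spleen.

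**Figure D1:**
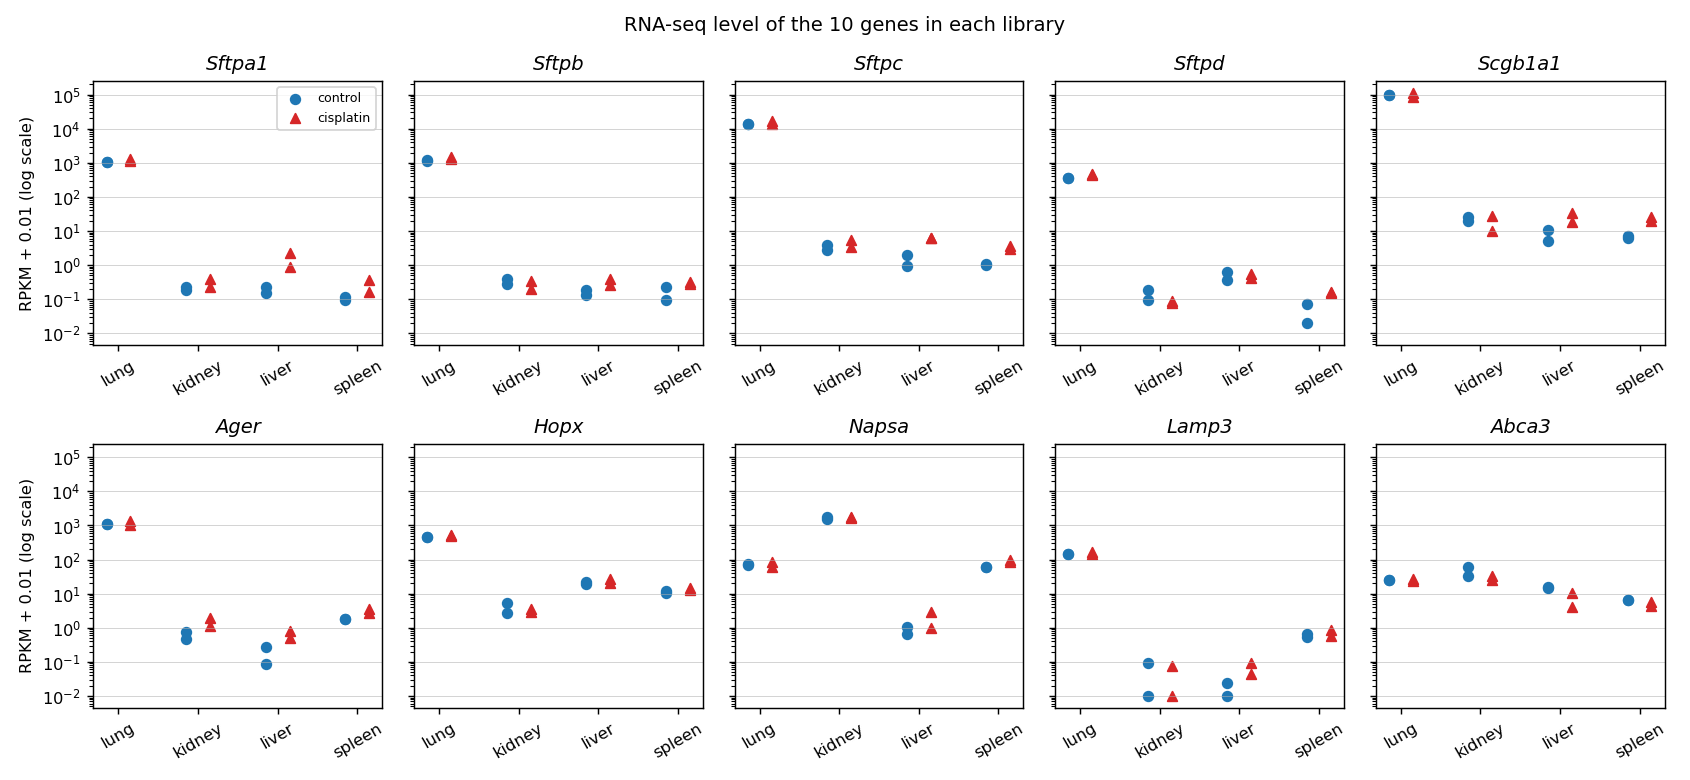
RNA-seq level of each of the 10 genes in every library, as RPKM plus 0.01 on a log axis, by organ, with controls as circles and cisplatin as triangles. For 8 genes the 4 lung libraries sit above all others, for Napsa the kidney libraries do, and for Abca3 lung and kidney overlap.

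Tested against each of the 3 other organs (edgeR quasi-likelihood test with a minimum log2 fold change of 0.4, organs as means of their control and cisplatin groups), 8 of the 10 genes were higher in lung, where 9.85% of all 19100 genes tested were. The median difference of the 10 genes, as the mean of the 3 log2 fold changes, was 10.60, against 0.01 over all genes. It was 12.13 for Scgb1a1 (adjusted p = 1.78e-06 for the weakest of the 3 organs), 11.88 for Sftpb (1.3e-07), 11.88 for Sftpc (3.11e-07), 11.53 for Sftpa1 (3.16e-07), 10.94 for Sftpd (1.04e-07) and 10.27 for Lamp3 (2.6e-06). It was 9.82 for Ager (1.39e-06) and 5.16 for Hopx (3.16e-07), the smallest of the 8. The genes were chosen as lung genes, so this check of the label is no finding. Organ by organ, 9 of the 10 genes passed against kidney (46.1% of all genes), 9 against liver (55.7%) and 9 against spleen (46.5%). Napsa was lower in lung than in kidney by a log2 fold change of −4.81 ± 0.56 (SE, adjusted p = 3.63e-05), higher than in liver by 4.64 ± 0.45 (adjusted p = 6.24e-06) and at −0.06 ± 0.46 against spleen. Abca3 passed only against spleen, at 2.06 ± 0.34 (adjusted p = 0.000843). Fewer cells of a type and less RNA per cell cannot be told apart in these whole-organ libraries.

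Further markers of lung epithelium were also tested in this comparison. Past the test and higher in lung were 11 of 15 further type 2 cell genes, 11 of 15 further type 1 cell genes, 10 of 15 further club cell genes, 10 of 10 ciliated cell genes and 7 of 13 transcription factors of lung epithelium that could be tested. Among 16 enzymes and regulators of surfactant lipid synthesis, 2 were. Over the 14 RNA-seq samples left after the near-identical control pairs were summed, the genes whose log2 values followed the mean of the 10 most closely were Ism1 (Pearson r = 0.999), Lrrc26 (r = 0.998), Cbr2 (r = 0.997), Aqp5 (r = 0.996) and Slc6a14 (r = 0.995), out of 4987 candidates with at least 10 RPKM in lung. The samples are libraries of 4 organs, so a high r says little more than that a gene is high in lung. Each member's own r with that mean was at least 0.968 for the 4 surfactant proteins, Scgb1a1, Ager and Lamp3, 0.853 for Hopx, 0.421 for Abca3 and 0.179 for Napsa.

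Cisplatin did not move any of the 10 genes past the test in lung (edgeR, cisplatin against control, test against a log2 fold change of 0.4), where 307 of 18210 genes or 1.69% were called, 14 higher (0.0769%) and 293 lower (1.61%). At an unadjusted p under 0.05 the count of members was also 0, against 2300 of all genes. DESeq2, run with each library as a replicate and so with 2 controls, called 0 members, where 1377 genes were called in all. Their log2 fold changes ran from −0.01 for Abca3 to 0.38 for Sftpd, with a median of 0.11 against 0.03 over all genes. Sftpd was highest, at 0.38 ± 0.16 (SE, adjusted p = 0.875), followed by Sftpb at 0.31 ± 0.18 (adjusted p = 0.982) and Sftpa1 at 0.21 ± 0.18. These 3 genes encode surfactant proteins. Sftpc stood at 0.14 ± 0.22, Hopx at 0.11 ± 0.17, Ager at 0.11 ± 0.22, Lamp3 at 0.06 ± 0.16, Scgb1a1 at 0.05 ± 0.25 and Napsa at 0.04 ± 0.23. In counts simulated for this design, the edgeR test called 20% of 2-fold and 75% of 4-fold changes. Of 200 changed genes it called 95 in the right direction, and it made 35 false calls among 17899 genes. Some of the genes called in lung may therefore be false calls. The lack of a call does not show that a level was unchanged.

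The cisplatin libraries differed from each other, least for Sftpd, as well as from the controls. Relative to the control mean in RPKM, cisplatin replicate 1 ran from 0.916 for Scgb1a1 to 1.33 for Sftpd, and cisplatin replicate 2 from 0.850 for Napsa to 1.27 for Sftpd. Both cisplatin libraries were above both controls for Sftpa1, Sftpb, Sftpd and Hopx, that is for 4 of 10 genes, while 33.4% of all genes with at least 10 lung reads were so placed. For no member were both below, against 32.2% of genes. For Sftpc, Scgb1a1, Ager, Napsa, Lamp3 and Abca3 the groups overlapped. Leaving out cisplatin replicate 1 or cisplatin replicate 2 left 0 genes called, in a fit over all organs that called 65 lung genes with every library in it.

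**Figure D2:**
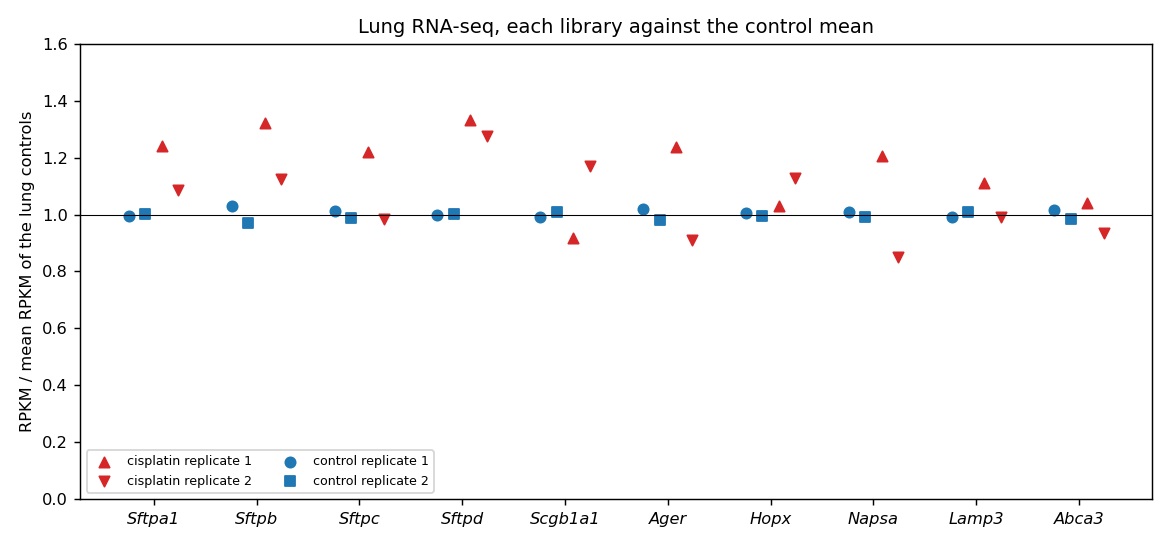
RNA-seq level of each gene in the 4 lung libraries, as RPKM divided by the mean of the lung controls, on a linear axis from 0. Controls lie between 0.972 and 1.03, and the cisplatin libraries lie on both sides of 1, from 0.850 to 1.33.

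Further markers of the epithelium had no call either. Of the further markers that could be tested, 0 of 15 type 2 cell genes, 0 of 15 type 1 cell genes, 0 of 15 club cell genes, 0 of 10 ciliated cell genes and 0 of 13 transcription factors passed in lung, with list medians of 0.06, 0.09, 0.19, 0.53 and −0.02 on the log2 scale. Among the 16 genes of surfactant lipid synthesis 3 fell, Acaca, Fasn and Acly, all of fatty acid synthesis, and 0 rose. Acly was named after its values were seen. Acaca, which makes malonyl-CoA, was at 13.3 and 13.2 RPKM in controls and at 2.38 and 1.70 RPKM after cisplatin (log2 fold change −2.70 ± 0.22, adjusted p = 0.0184). Fasn, the fatty acid synthase, was at 190 and 184 RPKM in controls and at 49.7 and 32.1 RPKM after cisplatin (log2 fold change −2.19 ± 0.27, adjusted p = 0.0374). Neither gene overlapped between the groups. Both calls were lost with all organs in 1 fit (adjusted p = 0.446 for Acaca and 0.729 for Fasn, edgeR) and, as for every gene, without either cisplatin library.

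Markers of fat cells moved with them. Summed over 8 such markers, chosen after these values had been seen, the level was 957 and 939 RPKM in lung controls and 190 and 71.3 RPKM after cisplatin, and none of the 8 was at 0 in any lung library. Adipoq, the fat cell hormone adiponectin, was at 92.3 and 93.4 RPKM in controls and at 18.6 and 7.27 RPKM after cisplatin. Ucp1, the uncoupling protein of brown fat, was at 192 and 185 RPKM in controls and at 11.4 and 0.331 RPKM after cisplatin. The part of fat tissue in the fall of Acaca, Fasn and Acly was not tested. Of 10 leukocyte markers 5 fell and 0 rose, with a list median of −1.40 on the log2 scale, and Cd79a and Cd3e were among those that fell. Cd79a of the B cell receptor was at 53.2 and 53.6 RPKM in controls and at 16.1 and 10.7 RPKM after cisplatin (log2 fold change −2.01 ± 0.25, adjusted p = 0.0374). Cd3e of the T cell receptor was at 5.76 and 5.34 RPKM in controls and at 1.56 and 1.15 RPKM after cisplatin (log2 fold change −2.01 ± 0.27, adjusted p = 0.031). Both calls were lost with all organs in 1 fit (adjusted p = 0.195 for Cd79a and 0.290 for Cd3e, edgeR), and that of Cd79a with library totals (adjusted p = 0.0505). Alveolar macrophage, endothelial, and fibroblast and smooth muscle genes had 0 of 10 called in each list, and 0 of 8 were called in a mixed list of mesothelium, heart muscle, thyroid and brown fat. The summed level of the 10 leukocyte markers was 200 and 202 RPKM in controls and 182 and 207 RPKM after cisplatin, of which S100a8 and S100a9 of neutrophils held means of 38.0 and 67.5 RPKM over the lung libraries. They were named after their values were seen and had log2 fold changes of 0.93 ± 0.22 (adjusted p = 0.196) and 1.06 ± 0.27 (adjusted p = 0.222).

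No member passed the test for a difference after cisplatin in the other organs. In liver, Sftpa1 was at 0.222 and 0.144 RPKM in controls (26 and 20 reads) and at 2.22 and 0.886 RPKM after cisplatin (186 and 89 reads). Sftpc was at 1.96 and 0.957 RPKM in liver controls and at 6.264 and 6.22 RPKM after cisplatin. In spleen, Scgb1a1 was at 7.05 and 6.24 RPKM in controls and at 19.6 and 25.1 RPKM after cisplatin.

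Of the members that could be tested within each organ, 0 of 8 passed in kidney (5.04% of genes), 0 of 9 in liver and 0 of 10 in spleen (0.170%), while 1, 5 and 3 had an unadjusted p under 0.05 in edgeR, as did 2935 of 15471, 1271 of 13868 and 792 of 17686 genes. In liver 0% of genes passed. The lowest adjusted p were 0.166, 0.112 and 0.417. The difference of the response between lung and each other organ was tested as an interaction, and 0 of 10 genes passed against kidney (0.131% of genes), liver (0%) and spleen (0.0105%), with 0, 3 and 1 at an unadjusted p under 0.05, where 1409, 1278 and 786 of 19100 genes were. Against liver the difference was −2.80 ± 0.69 for Sftpa1 (adjusted p = 0.391), −2.01 ± 0.67 for Sftpc (adjusted p = 0.557) and −1.94 ± 0.76 for Ager (adjusted p = 0.652). Abca3 had a log2 fold change of −1.19 ± 0.41 in liver (adjusted p = 0.473) and of −0.68 ± 0.35 in kidney (adjusted p = 0.507).

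Repair on the strand that is read did not rise with RNA over the 10 genes in lung. XR-seq and Damage-seq count DNA of all cells of the organ, while the RNA of a gene may come from some of them. Less repair where a gene is read and few cells reading it cannot be told apart here. Over 24616 genes with at least 10 GG on each strand, lung RPKM and the XR-seq TS level, in reads per 1000000 reads (RPM) per 1000 GG, rose together (Spearman's rho = 0.782, across genes, which are not independent replicates), and over the 10 genes rho was −0.297. Genes with at least 100 RPKM in lung, 398 in all, had a median XR-seq TS level of 37.6 with quartiles of 18.3 and 50.1. The 8 members among these 398 had a median of 1.49, and 7 of them, all but Ager, were below the lower quartile. The median over all 24616 genes was 4.84.

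Scgb1a1, rank 1 by RNA, had 0 and 4 TS reads in the lung XR-seq libraries, or 0 and 0.340 RPM per 1000 GG, where a count of 0 allows up to 0.182 (3 reads, counting error only). Of the 398 genes with at least 100 RPKM, 14 had a lower level, most of them with 0 TS reads, so its place rests on counts near the floor. Sftpc, rank 2 by RNA, had 85 and 26 reads, or 6.49 and 2.79, and 54 of the 398 genes were lower. Neither gene reached the median of the high genes in either library.

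The other surfactant proteins were as low. Sftpb had 61 and 62 TS reads (1.28 and 1.82 RPM per 1000 GG), Sftpa1 had 14 and 8 (0.901 and 0.722) and Sftpd had 49 and 55 (1.11 and 1.75). Lamp3, with 2338 GG on the TS over 52998 bp, had 30 and 25 TS reads (0.215 and 0.251), and 15 of the 398 genes were lower. Napsa, under the limit of 100 RPKM, had 165 and 124 (2.44 and 2.58).

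Ager, Hopx and Abca3 had more. Ager had 972 and 668 TS reads in lung (43.8 and 42.2 RPM per 1000 GG), above the median of the high genes. Its NTS was high as well, at 26.0 and 24.6 against a median of 2.14 in the high genes, and its neighbours Rnf5 on the other strand and Pbx2 on the same strand begin or end 155 and 462 bp away. Hopx had 1571 and 1269 (14.9 and 16.9). Abca3 had 11209 and 7962 (47.3 and 47.1), the highest level of the list at the lowest RNA.

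**Figure D3:**
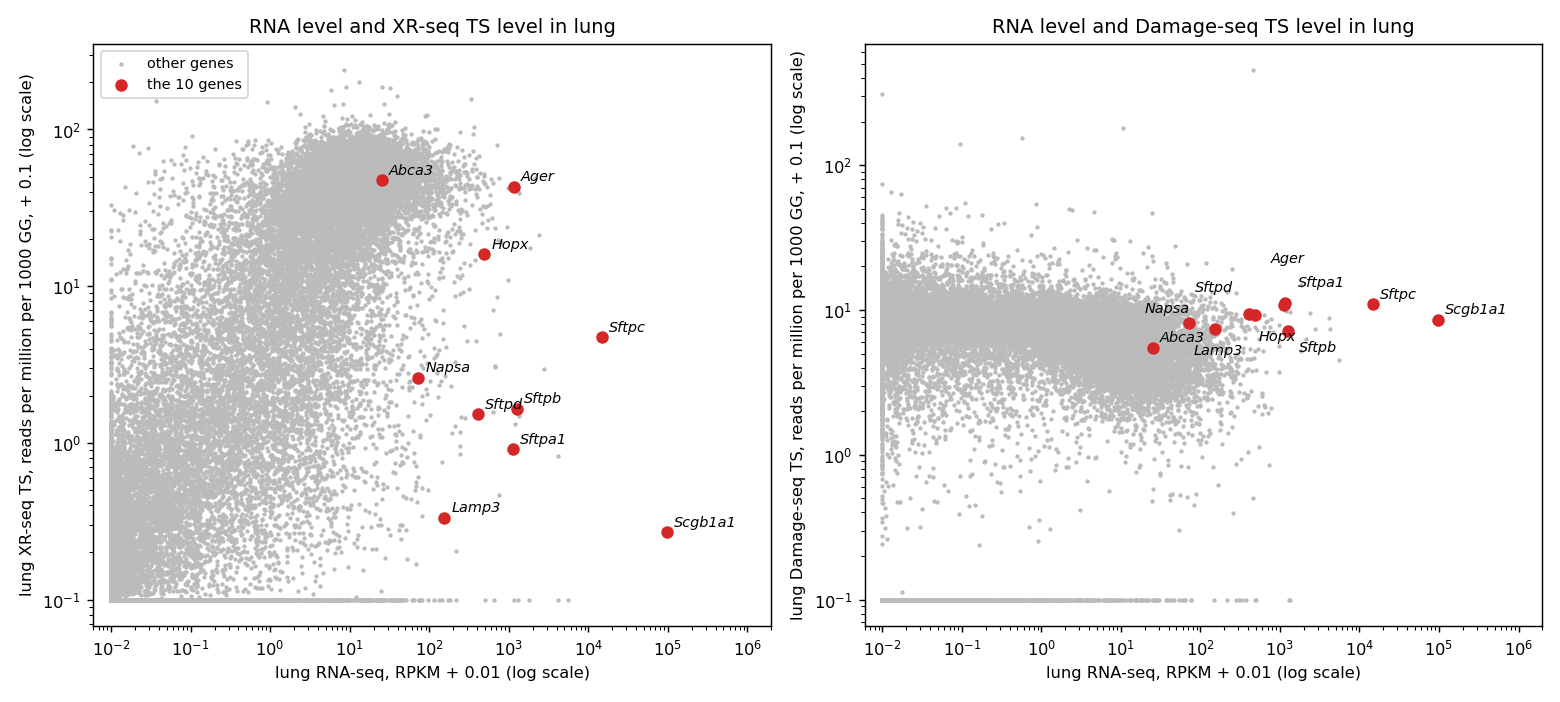
Mean lung RNA-seq level (RPKM plus 0.01, log axis) against the mean lung TS level of XR-seq on the left and of Damage-seq on the right (RPM per 1000 GG plus 0.1, log axes). Each grey point is one of the other genes and red points are the 10 genes, of which 7 of the 8 above 100 RPKM lie below the XR-seq lower quartile of such genes, 18.3, and Scgb1a1, with 0 and 4 TS reads, lies lowest.

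Low TS repair at high RNA was shared by the further type 2 and club cell markers and in part by those of type 1 cells. Counting only genes with at least 100 RPKM in lung, 6 of 6 further type 2 cell genes, 9 of 10 type 1 cell genes and 8 of 8 club cell genes were below the median of the 398 high genes, with medians of 1.20, 6.63 and 2.17 RPM per 1000 GG. The highest of each list stood at 15.7, 70.6 and 4.83, against a lower quartile of 18.3 in the high genes. The 4 endothelial genes with as much RNA had a median of 39.7, and 2 of them were below. The ciliated cell and surfactant lipid synthesis lists each held 2 genes with as much RNA, of which 1 was below. Their medians were 38.0 and 34.5. Both alveolar macrophage genes with as much RNA were below, at a median of 2.48. These counts are descriptions of lists chosen with results of these data known.

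The share of XR-seq reads on the TS differed widely within the list, while 90.0% and 89.7% of all reads on genes were on the TS in the lung libraries. Abca3 came close to that, with 92.6% (95% Wilson interval 92.1 to 93.1, counting error only) and 91.3% (90.7 to 91.9). Napsa had 82.5% (76.6 to 87.1) and 83.2% (76.4 to 88.4), Hopx 76.7% and 80.2%, and Ager 70.8% and 71.1%. Sftpc had 75.2% (66.5 to 82.3) and 46.4% (34.0 to 59.3), and the intervals of its libraries did not overlap.

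In Sftpb the order was turned. Its TS share was 8.70% (6.83 to 11.0) and 11.4% (9.03 to 14.4), with 640 and 480 NTS reads, and NTS exceeded TS in all 8 libraries of the 4 organs. The nearest protein-coding gene, Usp39, lies 4307 bp away on the other strand. Scgb1a1 had 29 and 43 NTS reads against its 0 and 4 TS reads, a TS share of 0% (0 to 11.7) and 8.51% (3.36 to 19.9).

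Against the mean of the 3 other organs, TS repair was called different in lung for Hopx alone among the members tested. In edgeR, lung against the mean of the 3 other organs, 9 of the 10 genes passed the filter on low counts (Scgb1a1 did not) and 1 was called, where 31.6% of 19731 genes were. Hopx was higher in lung by a log2 fold change of 0.94 ± 0.22 (SE, adjusted p = 0.00574). Its level was 14.9 and 16.9 in lung, 18.2 and 18.8 in liver, 8.43 and 7.88 in spleen and 4.33 and 2.14 in kidney, so lung lay between liver and spleen. The call was lost without lung replicate 2 (log2 fold change 0.86, adjusted p = 0.0716).

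Sftpc and Sftpd were the genes whose lung libraries both lay above all 6 others, 2 of 10, where 11.4% of genes did. Sftpc had 6.49 and 2.79 in lung and at most 1.82 elsewhere, with 0 TS reads in both spleen libraries. Its log2 fold change was 8.13 ± 2.93 against spleen, 3.02 ± 1.88 against kidney and 1.43 ± 1.73 against liver, none called. Against the mean of the 3 organs that of Sftpc was 4.19 ± 1.49 (edgeR, adjusted p = 0.0516), a size that rests in part on counts of 0. Its adjusted p was 0.0348 without a filter on low counts, 0.0464 with library totals, 0.0203 without kidney replicate 1 and 0.00576 without kidney replicate 2. Without kidney replicate 1, Ager and Napsa were called besides Hopx and Sftpc, and without kidney replicate 2, Sftpd, Ager and Abca3 were, so that 4 and 5 members were called, where 7733 and 8780 genes were called in all. Sftpd had 1.11 and 1.75 in lung and at most 0.586 elsewhere (2.32 ± 1.27, adjusted p = 0.194). Ager stood at 42.2 to 43.8 in lung, 47.8 to 49.8 in spleen, 19.3 to 24.5 in liver and 13.2 to 20.8 in kidney (0.63 ± 0.23, adjusted p = 0.0559), and Abca3 between 45.7 and 54.1 in every library of every organ (−0.17 ± 0.09, adjusted p = 0.200). Abca3 RNA in the cisplatin-treated organs ran from 4.08 to 32.1 RPKM over the same organs.

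On the TS of Sftpa1, and on the NTS of Sftpd and Sftpc, repair was highest in liver. Sftpa1 had a TS level of 23.6 and 22.9 in liver against 0.901 and 0.722 in lung, although its RNA in liver was at most 2.22 RPKM. The nearest protein-coding gene, Mat1a, lies 7370 bp away on the same strand. Sftpd had an NTS level of 29.8 and 42.2 in liver against 0.640 and 0.299 in lung. Its nearest protein-coding gene, Mbl1, lies 12613 bp away on the other strand. Sftpc likewise had 24.8 and 28.8 on the NTS in liver against 1.84 and 2.77 in lung, but its nearest protein-coding gene, Bmp1, lies 715 bp away on the same strand. The part of neighbouring genes in these reads was not tested.

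On the NTS, 9 genes could be tested (Sftpa1 could not) and 1 was called, where 11.1% of 19408 genes were. Napsa was lower in lung, at 0.610 and 0.611 against 4.13 and 5.19 in kidney, 9.17 and 14.1 in liver and 2.54 and 1.14 in spleen (log2 fold change −2.33 ± 0.43, adjusted p = 0.00664). Over 47.6% of Napsa its NTS is the TS of the antisense gene Gm15396. The call was lost without lung replicate 1 (adjusted p = 0.101) and without lung replicate 2 (adjusted p = 0.0733). Napsa and Abca3 were the members whose lung libraries lay below all others on the NTS, where 12.9% of genes did. These levels are scaled to the reads of both strands, of which 90.0% and 89.7% were on the TS in lung and 83.8% to 88.6% elsewhere. In the test, which scales the NTS by itself, Abca3 was at −0.04 ± 0.15 (adjusted p = 0.927, edgeR). Hopx was at 1.06 ± 0.32 (adjusted p = 0.0614) and was called by DESeq2 (adjusted p = 0.037) and without kidney replicate 1 (adjusted p = 0.000904) or kidney replicate 2 (adjusted p = 0.011), where 3386 and 4755 genes were called in all.

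The difference of the strands, log2 TS over NTS, was compared between lung and the mean of the other organs within libraries. It was called for 0 of 10 genes, where edgeR called 9.92% of 20759, with 3 members and 5059 of all genes at an unadjusted p under 0.05, and DESeq2 called 2, Sftpc and Napsa. Both were also called without kidney replicate 1 and Napsa without kidney replicate 2, where 3743 and 4446 genes were called in all. The median difference was 0.95 for the 10 genes and 0.50 for all genes. Napsa stood at 2.27 ± 0.66 (adjusted p = 0.0695), Sftpc at 5.16 ± 1.58 (adjusted p = 0.102) and Abca3 at 0.52 ± 0.17 (adjusted p = 0.105). Sftpa1 was the member with the opposite sign, at −1.54 ± 2.31 (adjusted p = 0.797).

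**Figure D4:**
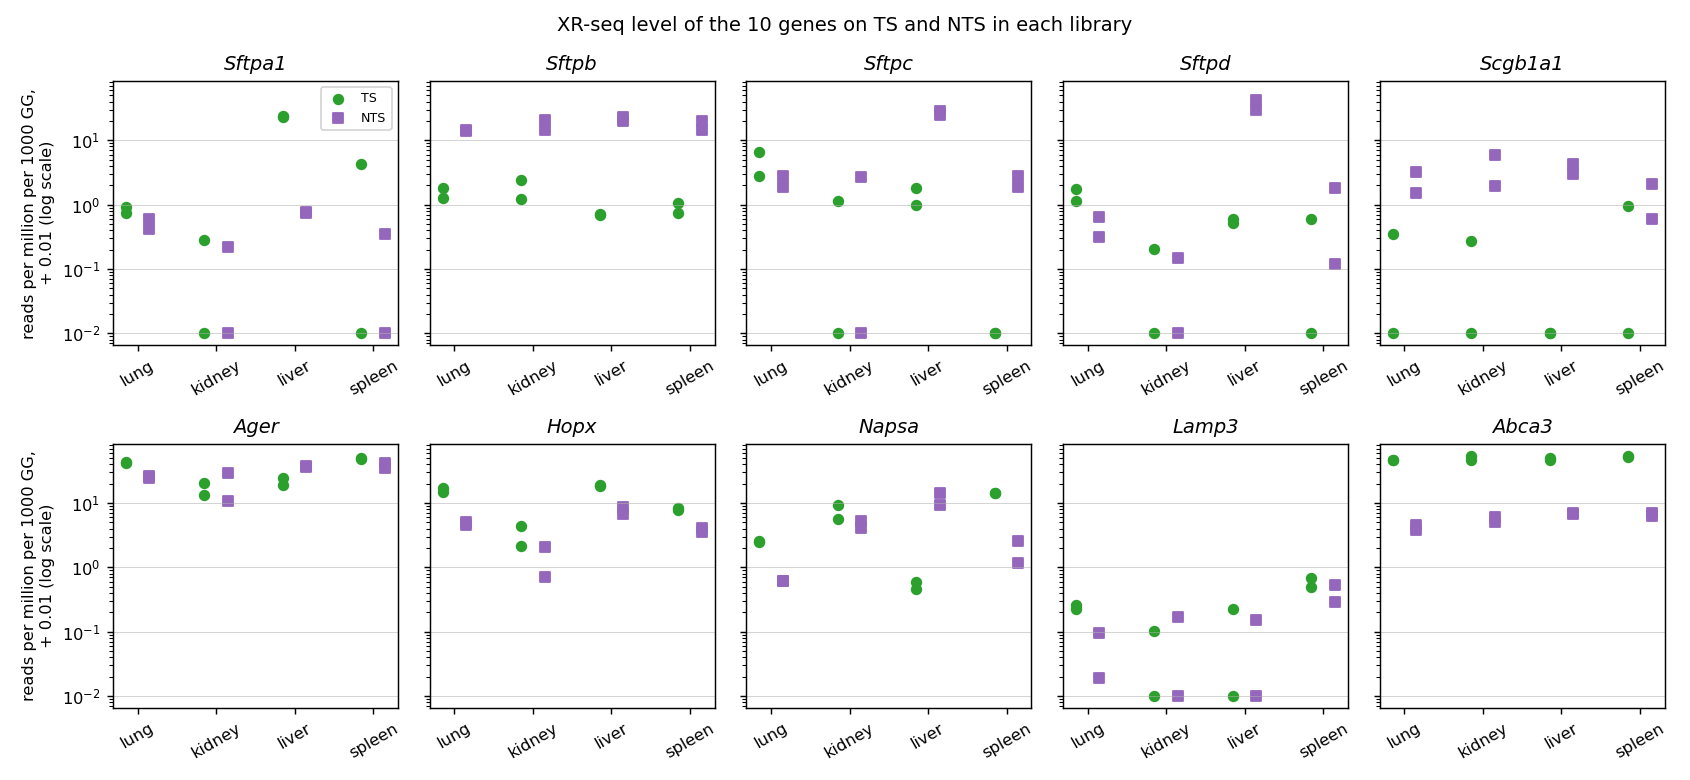
XR-seq level of each gene on the TS (circles) and NTS (squares) in the 2 libraries of each organ, in RPM per 1000 GG plus 0.01 on a log axis, so a point at the bottom is a library with 0 reads. The TS of Abca3 is level across organs at 45.7 to 54.1, the NTS of Sftpb is above its TS everywhere, and the NTS of Sftpc and Sftpd is highest in liver.

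On the TS the 8 members with at least 100 RPKM had more damage left at the time of sampling than most high genes. Damage was likewise counted over all cells of the organ. The 10 genes had a median lung Damage-seq level of 8.78 RPM per 1000 GG on the TS and 9.65 on the NTS, where the 398 high genes had 4.60 and 9.07 and all genes 7.12 and 8.75. On the TS all 8 members with at least 100 RPKM had a mean above 7.05, the upper quartile of the high genes. Scgb1a1 had 6.80 and 10.2 (10 and 17 reads), Sftpc 12.0 and 9.81 (14 and 13 reads), Sftpa1 15.2 and 6.35 (21 and 10 reads) and Sftpb 7.76 and 6.42 (33 and 31 reads).

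Sftpd had 7.62 and 11.0 on the TS, Ager 9.61 and 12.5, Hopx 8.86 and 9.30 and Napsa 7.48 and 8.49. Lamp3 had 7.79 and 6.71 on the TS and 11.6 and 9.25 on the NTS. Abca3, the member with the most TS repair, had the lowest TS damage, 5.68 and 5.13, and 8.43 and 8.49 on the NTS. In Lamp3, Abca3, Sftpb (11.4 and 8.74 on the NTS) and Hopx (9.94 and 10.4 on the NTS), both NTS values in lung were above both TS values. The share of all genes so placed was not counted, and the lung median of all genes was also lower on the TS (7.12) than on the NTS (8.75).

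No member passed the test of damage in lung against the other organs. On the TS 0 of 10 genes were called in edgeR, where 2.31% of 19759 genes were, with 1 at an unadjusted p under 0.05 (2837 of all genes), and on the NTS 0 of 10, where 0.00494% of 20262 were, with 2 (1901 of all genes). DESeq2 called 0 on either strand. Sftpb was the member nearest to a difference on the TS, with 7.76 and 6.42 in lung below the 7.98 to 12.3 of the other libraries (log2 fold change −0.57 ± 0.29, adjusted p = 0.338). On the NTS Sftpd had 12.2 and 8.64 in lung above the 5.19 to 7.32 of the others (0.79 ± 0.29, adjusted p = 0.38), and Napsa 8.01 and 9.47 below the 9.80 to 16.7 of the others (−0.52 ± 0.23, adjusted p = 0.489).

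Libraries of lung and of the other organs were apart for 1 of 10 genes on the TS, lower in lung, where 3.38% of genes were. On the NTS 2 of 10 were apart and higher in lung, Sftpd and Hopx, where 2.65% of genes were, and 1 was lower, Napsa, where 3.30% were. Napsa had its highest damage in kidney, 14.6 and 12.4 on the TS and 14.4 and 16.7 on the NTS, and so did Ager, with 23.0 and 17.9 on the TS and 22.9 and 27.1 on the NTS. The strand difference of Damage-seq between lung and the other organs was called for 0 of 10 genes in edgeR (1.66% of 20845 genes) and in DESeq2, with 2506 genes and 1 member at an unadjusted p under 0.05, Lamp3 at −0.46 ± 0.23 (adjusted p = 0.399). The lung libraries held 9 to 200 Damage-seq reads per member and strand.

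**Figure D5:**
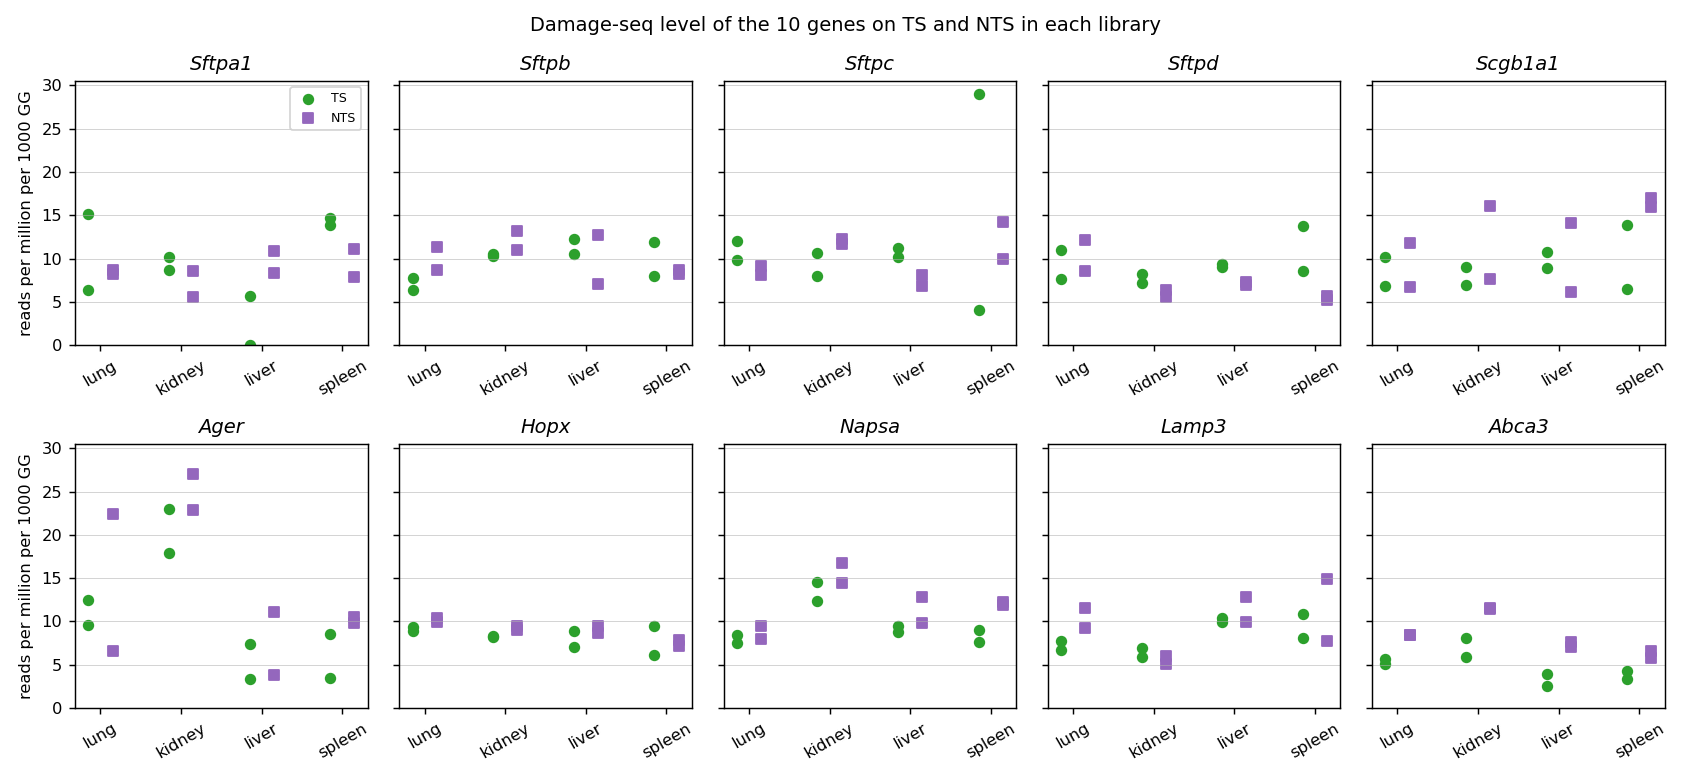
Damage-seq level of each gene on the TS (circles) and NTS (squares) in the 2 libraries of each organ, in RPM per 1000 GG on a linear axis from 0. Both lung libraries lie outside the range of the other organs for Sftpb on the TS and for Sftpd, Hopx and Napsa on the NTS. Napsa is highest in kidney, and Abca3 has a lower TS than NTS in all 8 libraries.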

How the data were processed

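RNA-seq, XR-seq and Damage-seq were measured in the 32 libraries described above, and groups were taken from the corrected labels. The deposited values are read counts per gene. Per the study's methods, the authors trimmed adapters with cutadapt, aligned XR-seq and Damage-seq reads to mm10 with BWA, filtered them on mapping quality, removed duplicates with Picard and counted each strand of Ensembl genes separately. RNA-seq reads were aligned with STAR and counted with featureCounts. The submitters' processing notes also name DESeq2, and the versions are not given in the sources used here. Removing duplicates in short genes and dropping reads that map to several places can lower counts.

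From the counts, 1 nameless entry per Damage-seq and XR-seq file was dropped, 25041 of 25059 genes were found in GENCODE M21, and RPKM and reads per 1000000 reads (RPM) per 1000 GG were computed with Python 3.11.15, numpy 2.4.6, pandas 2.3.3 and scipy 1.17.1. Levels per GG used genes with at least 10 GG on each strand, and genes with at least 100 RPKM in lung are called high. Tests used edgeR 4.0.16 in R 4.3.3 (quasi-likelihood, TMM scaling, filterByExpr) with Benjamini-Hochberg adjusted p under 0.05, and a minimum log2 fold change of 0.4 for RNA within lung and between organs. Control pairs with a dispersion index of at most 3 were summed. DESeq2 1.42.0, other scaling, no filter on low counts, other thresholds and samples, a replicate block and leaving out each library were alternatives. The scripts were tested on simulated data. Wilson intervals have 95% confidence, and these and the 3-count limit cover counting error only.

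All 10 members were named, with at most 4 other listed genes with the largest called change in lung, Cdkn1a and Mdm2, and the 5 genes most alike in RNA with at least 10 RPKM in lung. The members and lists were chosen with earlier results of these data known, and the fat cell markers after their values were seen. A listed gene is not reported here.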

Additional observations from a re-analysis of the deposited data

How the results depend on the processing

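In RNA of lung after cisplatin, none of the 10 genes was called under any alternative run, and 8 of 10 stayed called between organs. Single genes changed sign 54 times over 32 results, never past the threshold. Replicate numbers pair no samples by label, and with 2 numbers the data cannot decide it (correlation of same-numbered deviations in RNA-seq of kidney 0.660, of liver 0.537, of lung 0.0770 and of spleen 0.128, other assays −0.0791 to 0.0700). The depth of Damage-seq, and of XR-seq in Scgb1a1, Sftpa1 and Lamp3, limits their values. The causes of the changes below were not tested.

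The 307 genes called in lung RNA after cisplatin became 1608 with each library as a replicate, 1377 with this in DESeq2, 1363 without a filter, 739 against a log2 fold change of 0, 65 with all organs in 1 fit and 1872 with the replicate block and each library as a replicate. They ranged from 0 (without cisplatin replicate 1 or 2, in the fit of all organs) to 270 with a library left out. Of genes called between organs, 2191 became 1238 in controls only. Against kidney, liver and spleen, response differences (25, 0 and 2 genes) became 279, 110 and 117 with each library as a replicate and 232, 75 and 112 with this and the replicate block, and 10 against kidney with library totals. With a library left out they ranged from 5 to 21 against kidney and from 1 to 2 against spleen. The replicate block changed no other count past 1.5 times, in RNA-seq always with each library as a replicate. In XR-seq, library totals, DESeq2 and no filter called 6806, 7023 and 6612 of all genes on the TS. On the NTS they called 3028, 2958 and 2387, and the member counts below stand beside these.

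XR-seq TS calls (6231) became 1161 against each organ and 3233 to 8780 with a library left out. Members called (1) became 3 with library totals, 2 in DESeq2, 2 without a filter, 0 against each organ and 0 to 5 with a library left out. NTS calls (2146) became 276 and 528 to 4755, and members (1) became 2, 2, 2, 0 and 0 to 2, in the same order. Strand difference calls (2059) became 3951 in DESeq2, with 2 members, and 0 (without lung replicate 1) to 4446, with 0 to 2 members, with a library left out. Damage-seq TS calls (457) became 148 in DESeq2, 41 against each organ and 197 to 631 with a library left out. NTS calls (1) became 12 without a filter, 0 against each organ and 1 to 129 (without kidney replicate 2), and strand difference calls (347) became 32 in DESeq2 and 211 to 377.

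These log2 fold changes turned sign. With library totals, Napsa was at 0.43 between organs and 0.031 for lung minus kidney, and XR-seq NTS at −0.39 for Sftpb, −0.20 for Scgb1a1 and −0.26 for Ager. Napsa was at 0.23 in controls only. With the replicate block (and each library as a replicate in RNA-seq), Napsa was at 0.0038 for lung minus kidney and Damage-seq NTS of Sftpa1 at 0.012. With a library left out, the lung RNA response ran from −0.071 to 0.033 for Abca3, −0.0013 to 0.26 for Sftpc, −0.11 to 0.29 for Ager, −0.21 to 0.24 for Napsa, −0.0011 to 0.11 for Lamp3 and −0.16 to 0.23 for Scgb1a1. Napsa ran from −0.20 to 0.030 between organs and −0.28 to 0.17 for lung minus kidney, Scgb1a1 from −0.0054 to 0.39 for lung minus kidney and Hopx from −0.15 to 0.027 for lung minus liver. XR-seq TS ran from −1.75 to 1.09 for Sftpa1. XR-seq NTS ran from −0.77 to 1.67 for Sftpc, −1.58 to 0.50 for Sftpd, −3.12 to 1.03 for Lamp3, −0.14 to 0.041 for Abca3 and −0.22 to 0.78 for Scgb1a1. The XR-seq strand difference ran from −2.07 to 2.01 for Scgb1a1 and −3.99 to 0.52 for Sftpa1. Damage-seq TS ran from −0.38 to 0.55 for Sftpc, −0.28 to 2.18 for Sftpa1, −0.42 to 0.15 for Scgb1a1 and −0.25 to 0.27 for Sftpd. Damage-seq NTS ran from −0.096 to 0.088 for Sftpa1, −0.16 to 0.24 for Sftpb and −0.82 to 0.92 for Ager. The Damage-seq strand difference ran from −0.45 to 0.93 for Ager, −0.28 to 2.02 for Sftpa1, −0.24 to 0.85 for Sftpc, −0.38 to 0.99 for Scgb1a1 and −0.13 to 0.029 for Hopx.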
